A study of Homo sapiens with 6 samples.

Results

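The genes described here are 30 zinc finger genes that lie next to one another in chromosome band 19q13.12 of the human genome, around ZNF585B. They were chosen by their place around ZNF585B, and ZNF585B itself was picked from these same arrays for its difference between the vectors, so its difference is given as a description with no test. The array annotation paired 29 of the 30 genes with a probe set, each with 1 probe set that names that gene alone, among 28869 probe sets in all. ZNF875 is listed under its current symbol and was formerly HKR1. ZNF260 was not named by the annotation and is not analysed here. In the RefSeq gene order the 30 genes fall within a stretch of 52 entries of chromosome 19, and the other 22 entries of that stretch are mostly long noncoding RNAs and pseudogenes.

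RNA came from the human breast cancer line MDA-MB-231, an established line with mesenchymal features that lacks oestrogen, progesterone and HER2 receptors. Cells carried either the pTargeT mammalian expression vector with GHSROS, a long noncoding RNA from the strand opposite the ghrelin receptor gene GHSR, or the same vector empty. Each group had 3 cultures, called biological replicates by the submitters, and total RNA of each was hybridised to 1 Affymetrix Human Gene 1.0 array. The comparison asks which genes differ in level between cells given GHSROS and cells given the empty vector. The labels do not say whether the cells were a stable pool, a clone or transiently transfected.

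Most genes of this kind encode proteins with a KRAB domain at one end and a row of C2H2 zinc fingers at the other. The fingers bind DNA, often within transposable elements, and the KRAB domain recruits TRIM28, which brings the histone methyltransferase SETDB1 and heterochromatin protein 1 to silence the bound locus. Chromosome 19 holds several dense clusters of such genes, which grew by tandem duplication, and neighbours can therefore be close copies. ZNF585A and ZNF585B are such a pair. A few genes of the cluster, ZNF146 among them, encode fingers without a KRAB domain.

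The letters upstream of ZNF585A and ZNF585B are shown because both genes were lower with GHSROS and stand side by side. Each line gives the 250 bases before an annotated RefSeq start (assembly GRCh38.p14, minus strand, read 5′ to 3′), at chr19:37172696-37172945 for the more upstream of the annotated starts of ZNF585A and at chr19:37210537-37210786 for ZNF585B. Capitals mark matches, on either strand, to CCGGAAGT (a motif of ETS factors), GCATGCGC (NRF1), AAGATGGCG (YY1) and CCAAT or its reverse complement, with 0 overlaps among them.
ZNF585A: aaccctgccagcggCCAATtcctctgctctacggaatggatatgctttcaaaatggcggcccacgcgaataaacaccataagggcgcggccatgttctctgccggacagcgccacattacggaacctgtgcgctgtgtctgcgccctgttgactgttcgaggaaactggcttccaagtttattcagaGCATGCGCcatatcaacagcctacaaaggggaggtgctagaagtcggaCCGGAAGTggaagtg
ZNF585B: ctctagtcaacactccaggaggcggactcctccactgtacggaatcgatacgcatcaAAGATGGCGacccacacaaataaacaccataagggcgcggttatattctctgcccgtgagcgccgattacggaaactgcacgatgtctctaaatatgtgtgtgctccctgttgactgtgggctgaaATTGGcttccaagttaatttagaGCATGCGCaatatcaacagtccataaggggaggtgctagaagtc
Aligned with free end gaps, both windows were identical at 186 of 230 aligned bases, or 80.9%. In a local alignment of ZNF585B with every other member window, the printed ZNF585A window scored 127.5 and the next window, of ZNF567, scored 12. The window of the other annotated ZNF585A start scored 9. The NRF1 letters stand in both printed windows, and 5 of the 27 genes with a window hold them. By window that is 10.4% of 48, beside 2.63% of all 35116 RefSeq windows of the same length. The ETS letters lie upstream of the start in ZNF585A and past the annotated start in ZNF585B, and the YY1 letters are in ZNF585B alone of the pair. The ETS letters were found in 8.33% of member windows and 3.42% of all windows, the YY1 letters in 4.17% and 0.652%, and CCAAT in 22.9% and 32.0%. Windows can overlap: those of ZNF829 and ZNF568 hold the same ETS letters, which are counted in both. The NRF1, ETS and YY1 shares rest on 5, 4 and 2 member windows. Each of these 3 runs of letters holds a C followed by a G. Member windows had a median of 18 such steps against 11 in all windows, and 61.2% G and C against 58%. Whether base composition has a part in the shares was not tested. A match is a run of letters and not a shown binding site.

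Many of the genes start back to back with a neighbour, so that 1 short stretch lies upstream of both. In RefSeq, 16 of the 27 genes with a window (59.3%) had an opposite-strand start facing away within 500 bases, beside 18.4% of 27305 genes in all, and 12 of them formed 6 pairs within the cluster. The stretches between the nearest annotated starts of 4 pairs are printed on the plus strand because the partners are compared below, with GGGCGG, the letters of SP factors, and the ETS letters in capitals on either strand.
ZNF529 and ZNF382, chr19:36605258-36605312: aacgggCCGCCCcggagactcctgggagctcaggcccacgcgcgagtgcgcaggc
ZNF461 and ZNF567, chr19:36666838-36666933: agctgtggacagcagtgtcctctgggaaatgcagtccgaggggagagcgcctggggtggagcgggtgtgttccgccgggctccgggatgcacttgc
ZNF790 and ZNF345, chr19:36850286-36850364: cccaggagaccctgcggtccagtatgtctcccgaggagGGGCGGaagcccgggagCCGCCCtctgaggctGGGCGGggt
ZNF829 and ZNF568, chr19:36916292-36916331: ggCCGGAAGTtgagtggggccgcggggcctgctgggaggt
Between the starts of these pairs lie 55, 96, 79 and 40 bases. GGGCGG was present in 37.5% of member windows and 42.6% of all windows. The ZNF790 and ZNF345 stretch holds it repeatedly, and the ZNF829 and ZNF568 stretch holds the ETS letters.

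The array medians ran from 6.559 to 6.648 on the log2 scale. Empty-vector array 1 and GHSROS array 3 stood apart from the others, with means of 29 mitosis genes of 9.92 and 9.93 against 10.74 to 10.95 on the other 4 arrays, so values without these 2 arrays are given beside the main results. The mesenchymal markers of the line averaged 11.61 to 11.88 per array, with VIM at 12.99 to 13.37 but S100A4 at 6.45 to 7.17. All 7 of these markers had the lower mean with GHSROS, with a median difference of -0.15, and for VIM the groups did not overlap. Leukocyte markers averaged 4.92 to 5.05. The 3 endothelial markers averaged 5.87 to 6.40, and 1 of them, CDH5, read 6.65 to 7.32, above every array median. The 7 luminal epithelial markers averaged 6.82 to 6.98, 4 lower and 3 higher with GHSROS. Among them ESR1, the oestrogen receptor, lay between 5.04 and 5.18, and KRT19, a keratin, averaged 11.97 and 11.69 in the 2 groups. FOXA1, a luminal transcription factor, was 0.35 higher with GHSROS, with the groups apart. Over all 21062 annotated probe sets, 0 passed an adjusted p of 0.05 in limma (0% called), 380 had an unadjusted p under 0.05 (1.8%), and the median difference was 0.0005.

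ZNF585B, a KRAB zinc finger gene whose function is not settled, read 7.78, 7.63 and 7.34 on the empty-vector arrays 1 to 3 and 6.36, 6.23 and 6.52 on the GHSROS arrays 1 to 3. All 3 GHSROS arrays lay below all 3 empty-vector arrays. The means were 7.58 ± 0.23 (SD, n = 3) for the empty vector and 6.37 ± 0.15 for GHSROS, a log2 difference of -1.21 with a standard error (SE) of 0.14, or 2.31-fold lower. By size of difference it ranked 11 of the 21062 probe sets. The difference was -1.18 without the arrays that stood apart and between -1.33 and -1.11 with single arrays left out.

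ZNF585A, its neighbour and near copy, read 7.80, 7.66 and 7.59 with the empty vector and 7.27, 7.26 and 7.21 with GHSROS. Here too the groups were apart, and the GHSROS arrays differed among themselves by little. The means of 7.68 ± 0.10 (SD, n = 3) and 7.25 ± 0.03 gave a log2 difference of -0.44 (SE 0.09), or 1.35-fold lower, at an unadjusted p of 0.0017 and an adjusted p of 1 in limma. Without both arrays that stood apart it was -0.36. The sequences of the array probes were not used here, so whether the probe set of one copy also reads RNA of the other was not tested, and the 2 values are uncertain as separate measurements.

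The next genes on either side differed less. ZNF420, known as Apak, a repressor of p53-driven apoptosis, read 6.89, 7.07 and 6.69 with the empty vector and 6.62, 6.74 and 6.56 with GHSROS. The groups overlapped, since GHSROS array 2 exceeded empty-vector array 3, and the difference was -0.24 (SE 0.12), or -0.15 without empty-vector array 2. ZNF383, on the far side of ZNF585B, read 8.53, 8.30 and 8.18 against 7.85, 8.32 and 8.18, a difference of -0.22 (SE 0.15) that was -0.089 without GHSROS array 1. The next gene after it, ZNF875, read 6.20, 6.26 and 5.93 against 5.97, 6.11 and 5.81 (difference -0.17, SE 0.13), or -0.090 without GHSROS array 3. The groups overlapped for these 3 genes, and for ZNF568 before ZNF420, given below.

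**Figure D1:**
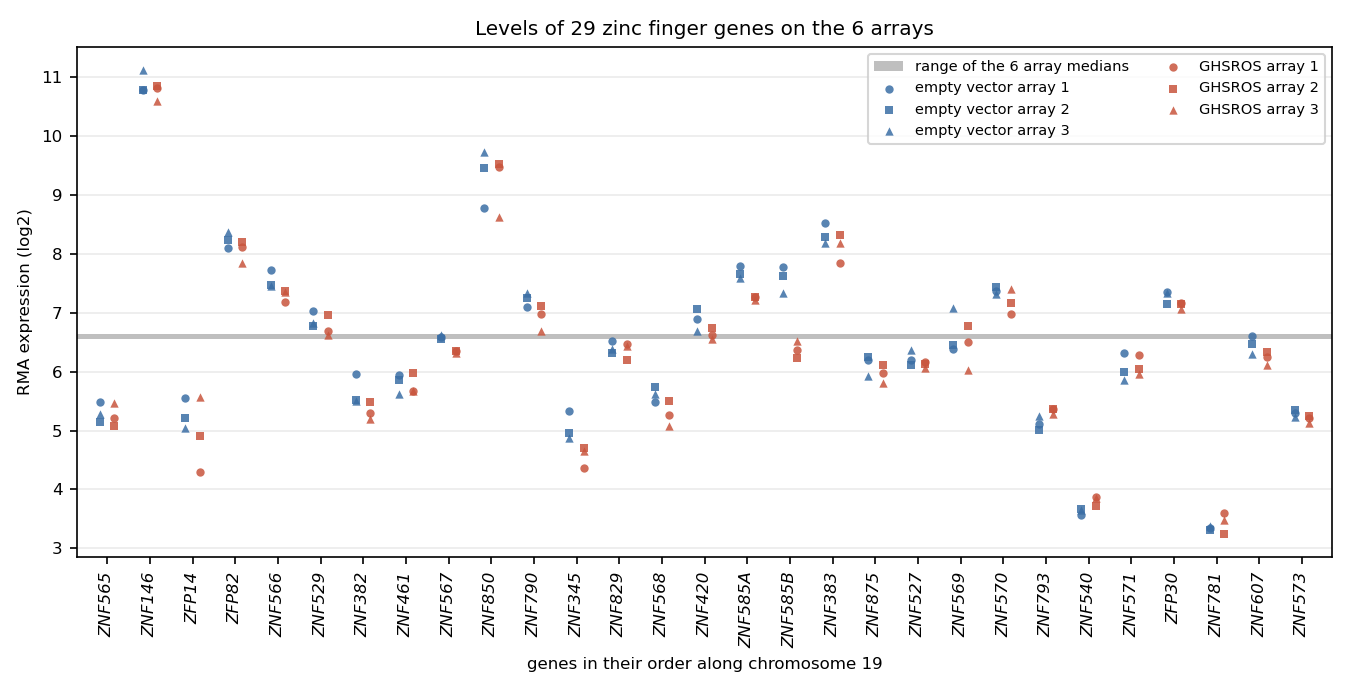
Log2 expression (vertical axis) of the 29 measured zinc finger genes in their order along chromosome 19 (horizontal axis), with 1 point per array, blue for empty vector and red for GHSROS, and a grey band for the range of the array medians (6.559 to 6.648). The red points of ZNF585B, at 6.23 to 6.52, lie below its blue points at 7.34 to 7.78.

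Across the cluster the GHSROS mean was the lower one for 25 of the 29 genes, where 49.8% of all annotated probe sets were lower. The median log2 difference was -0.18 over the 29 genes, -0.17 without ZNF585A and ZNF585B, and 0.0005 over all probe sets. A difference of -0.2 or below was seen for 13 of 29 genes and for 4.32% of all probe sets. The groups did not overlap for 6 genes in the lower direction, beside 2.46% of all probe sets, and for 2 in the higher direction, beside 3.01%. Of the 29, 5 had an unadjusted p under 0.05 in limma, all lower, beside 0.869% of all probe sets in that direction and 0.935% in the higher one, but 0 passed over all probe sets and every adjusted p was 1. ZNF585B is counted in each of these numbers. Without it 24 of 28 genes were lower, 12 by 0.2 or more, 5 had groups apart in the lower direction and 4 had an unadjusted p under 0.05. The mesenchymal markers were lower in the same cultures, and their part in the result was not tested. The cluster was picked with this contrast known, so the counts are a description.

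After quantile normalization 25 of 29 genes were lower, beside 47.1% of all annotated probe sets, and after median centring 25 of 29, beside 54.8%. Without both arrays that stood apart 23 of 29 were lower, beside 52.7% of all probe sets, and the median difference of the 29 was -0.12. The mean of the 29 genes on an array was 6.52 to 6.59 with the empty vector and 6.30 to 6.42 with GHSROS. Without ZNF585B these ranges were 6.48 to 6.55 and 6.29 to 6.42, so the groups stayed apart. The array means of the 215 other zinc finger probe sets of chromosome 19 were apart too, at 7.01 to 7.04 and 6.88 to 6.98. All 15 measured genes that precede ZNF585A in chromosome order were lower, with a median difference of -0.24, although ZNF461 and ZNF529 turned without both arrays that stood apart. Of the 12 that follow ZNF585B, 8 were lower, and the median of the 12 was -0.13.

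**Figure D2:**
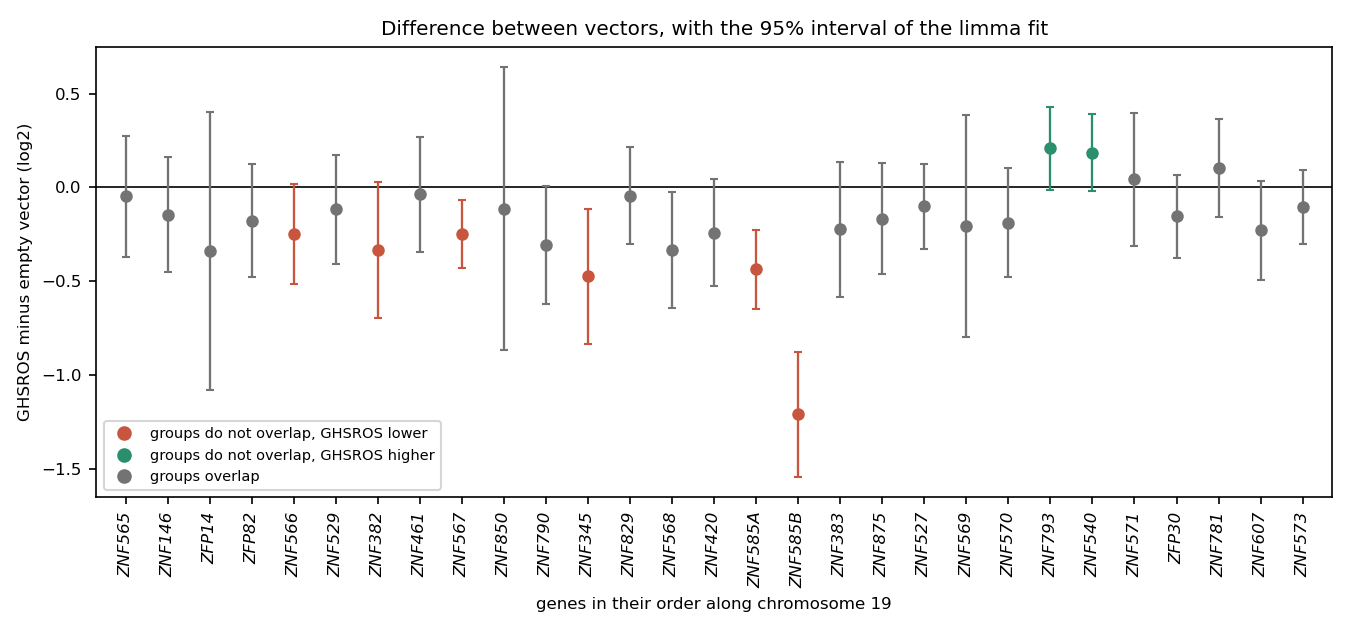
Log2 difference of GHSROS minus empty vector (vertical axis) for each gene in chromosome order (horizontal axis), with bars for the 95% confidence interval of the limma fit. Red marks genes whose GHSROS arrays all lie below the empty-vector arrays and green the reverse: ZNF585B at -1.21 stands below the others, and ZNF793 and ZNF540 are the 2 green points.

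Of the other genes, ZNF567 had the next smallest p after the ZNF585 pair. It read 6.59, 6.56 and 6.62 with the empty vector and 6.36, 6.36 and 6.31 with GHSROS, with a pooled SD of 0.03, the smallest of the 29. The groups were apart and the difference of -0.25 (SE 0.08, limma unadjusted p = 0.0144) moved only between -0.26 and -0.23 with single arrays left out. ZNF345 read 5.33, 4.95 and 4.87 against 4.37, 4.70 and 4.65. The groups were again apart, and the difference of -0.47 (SE 0.15, unadjusted p = 0.0173) ranged from -0.56 to -0.34 with single arrays left out.

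ZNF568, whose mouse counterpart represses a placental transcript of Igf2, read 5.48, 5.73 and 5.62 with the empty vector and 5.26, 5.50 and 5.08 with GHSROS. The groups overlapped by a narrow margin, since GHSROS array 2 lay just above empty-vector array 1, and the difference was -0.33 (SE 0.13, limma unadjusted p = 0.0386). ZNF790 read 7.10, 7.26 and 7.34 against 6.98, 7.11 and 6.69, and its difference of -0.31 (SE 0.13) was -0.19 without GHSROS array 3. ZNF566 read 7.73, 7.47 and 7.45 against 7.18, 7.38 and 7.35, with the groups apart and a difference of -0.25 (SE 0.11) that was -0.16 without empty-vector array 1. ZNF382, a KRAB repressor known to be silenced by promoter methylation in several carcinomas, read 5.97, 5.51 and 5.51 against 5.29, 5.49 and 5.20. Its groups were apart by less than 0.1 between GHSROS array 2 and empty-vector array 3, and the difference of -0.33 (SE 0.15) was -0.18 when empty-vector array 1 was left out.

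The GHSROS mean was the higher one for 4 genes, ZNF793, ZNF540, ZNF571 and ZNF781, which all follow ZNF585B in chromosome order. ZNF793 read 5.12, 5.01 and 5.25 with the empty vector and 5.36, 5.36 and 5.28 with GHSROS, and ZNF540 read 3.57, 3.66 and 3.65 against 3.87, 3.71 and 3.86. In both the GHSROS arrays lay above all empty-vector arrays, with differences of 0.21 (SE 0.09) and 0.18 (SE 0.09). ZNF571 differed by 0.04 (SE 0.15), with an interval from -0.31 to 0.40, and its sign turned without GHSROS array 1 or without empty-vector array 3. ZNF781, listed as a transcribed pseudogene in RefSeq, read 3.34, 3.32 and 3.38 against 3.61, 3.25 and 3.49, the lowest readings of the 29, and differed by 0.10 (SE 0.11), or 0.022 without GHSROS array 1. All 4 read below every array median, as did 17 of the 29 genes, while the 12 genes that read above every median were lower with GHSROS. The array medians cover all probe sets, unnamed ones included. The median level of the annotated probe sets was 7.48, and only 4 of the 29 genes reached it. Differences of dim probe sets can be compressed on such arrays, and readings of different probe sets do not rank the genes' RNA levels.

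ZNF146, known as OZF, gave the highest readings of the cluster, at 10.79, 10.78 and 11.12 with the empty vector and 10.82, 10.85 and 10.59 with GHSROS, and the groups overlapped (difference -0.14, SE 0.13). Without empty-vector array 3 the difference was -0.033. ZNF607 differed by -0.23 (SE 0.11), ZNF570 by -0.19 (SE 0.12) and ZFP82 by -0.18 (SE 0.13). ZFP30 differed by -0.15 (SE 0.09) and ZNF529 by -0.12 (SE 0.12). ZNF573 and ZNF527 both differed by -0.10 (SE 0.08 and 0.10). With 1 array left out, the values nearest 0 were -0.085 for ZNF570 (without GHSROS array 1) and -0.072 for ZFP82 and -0.067 for ZNF573 (without GHSROS array 3). They were -0.041 for ZNF529 (without empty-vector array 1) and -0.032 for ZNF527 (without empty-vector array 3). ZNF565 at -0.05, ZNF829 at -0.04 and ZNF461 at -0.04 were near 0, and each took the other sign when at least 1 single array was left out. The 95% intervals of these 3 ran from -0.37 to 0.28, from -0.30 to 0.21 and from -0.34 to 0.27, so differences of that size in either direction are within the error.

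The spread between cultures set how well each gene could be read. The pooled SD within groups had a median of 0.16 over the 29 genes, beside 0.15 over all annotated probe sets. Without ZNF585B, the difference was larger than the gene's own pooled SD for 18 of 28 genes, beside 18% of all probe sets. ZNF850 varied most. Its readings were 8.78 for the first empty-vector array and 8.62 for the third GHSROS array, those on which mitosis genes were lowest, and 9.46 to 9.72 on the others, and its difference between vectors was -0.11 (SE 0.32). ZFP14 read 5.55, 5.21 and 5.04 with the empty vector and 4.30, 4.91 and 5.57 with GHSROS, and its difference of -0.34 (SE 0.31) was -0.026 without GHSROS array 1 and -0.66 without GHSROS array 3. ZNF569, reported as a repressor of MAP kinase signalling, read 6.39, 6.45 and 7.08 against 6.50, 6.78 and 6.02, and its difference of -0.21 (SE 0.25) turned to 0.01 without empty-vector array 3. Whether the state of the cultures had a part in these 3 differences was not tested.

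**Figure D3:**
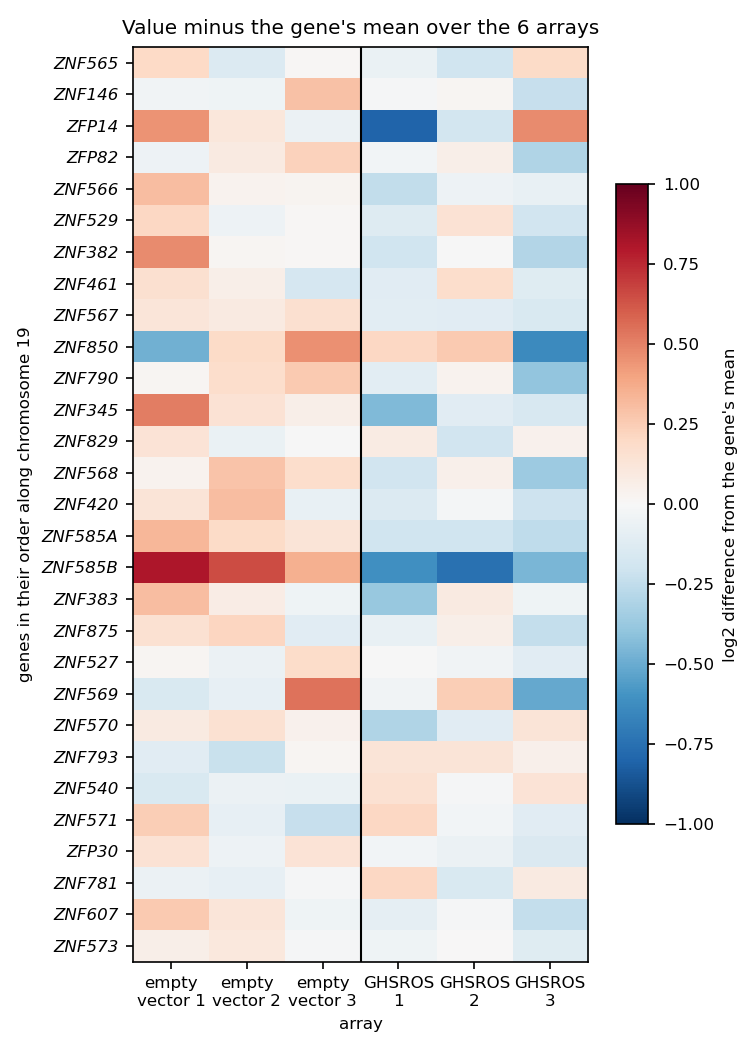
Each gene's value minus its mean over the 6 arrays (colour, log2, red above and blue below), with genes in chromosome order down the side and the arrays along the bottom, empty vector left of the line. ZNF585B is red in all 3 empty-vector columns and blue in all 3 GHSROS columns, while ZNF850 is blue in the first empty-vector column and the third GHSROS column.

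For partners that start back to back, the fitted differences were unequal in most pairs. ZNF382 differed by -0.33 and its partner ZNF529 by -0.12, and ZNF567 by -0.25 and its partner ZNF461 by -0.04. ZNF345 stood at -0.47 and ZNF790 at -0.31, and ZNF568 at -0.33 and ZNF829 at -0.04. ZNF146 stood at -0.14 and ZNF565 at -0.05, and ZNF570 and ZNF569 were close at -0.19 and -0.21. The plus-strand gene had the lower value in 5 of 6 pairs. Over all measured genes with a window, 10 of 12 on the plus strand and 14 of 14 on the minus strand were lower with GHSROS. ZFP14, ZNF571 and ZNF781 had no window and are left out of these counts. Of them ZFP14 was lower (-0.34), and ZNF571 (0.04) and ZNF781 (0.10) were higher with GHSROS. For the difference between partners, taken within each array and compared between the vectors, an exact two-sided permutation test gave p = 0.1 for ZNF382 and ZNF529, whose within-array differences separated the vectors completely, and 0.3 to 1 for the other pairs. With 3 arrays against 3 the test cannot go below 0.1 and so cannot pass 0.05. Adjusted over the 6 pairs every p was at least 0.6.

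**Figure D4:**
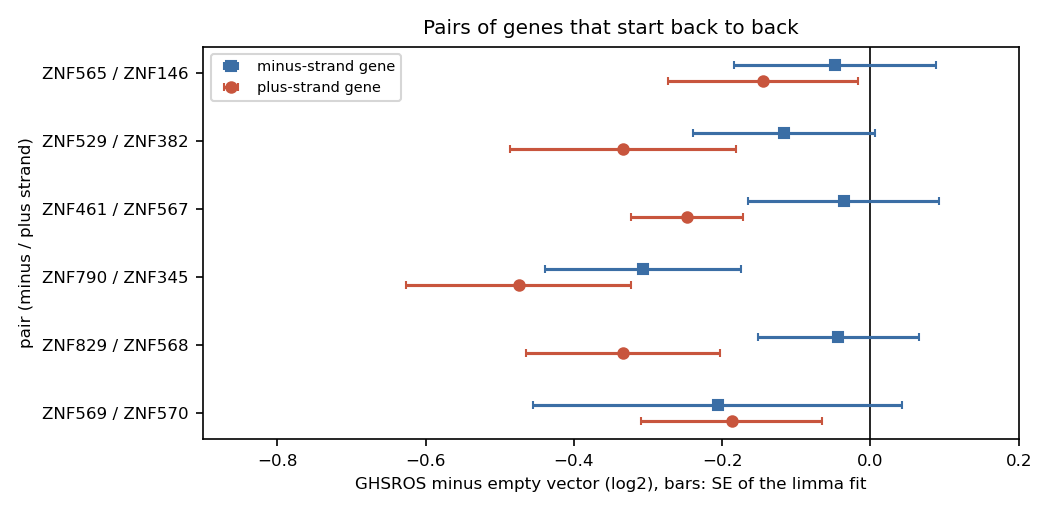
Log2 difference of GHSROS minus empty vector (horizontal axis) for the 6 pairs of genes that start back to back (vertical axis), blue squares for the minus-strand gene and red circles for the plus-strand gene, with bars for the SE of the limma fit. The red point lies left of the blue one in 5 of 6 pairs, by the widest margin for ZNF568 at -0.33 and ZNF829 at -0.04.

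Lower readings were also frequent among the other zinc finger genes of chromosome 19. Of the other 215 probe sets on chromosome 19 whose symbol starts with ZNF or ZFP, 168 were lower (78.1%), with a median difference of -0.10, and 152 were lower without both arrays that stood apart. On other chromosomes it was 161 of 284 (56.7%), with a median of -0.01, and for chromosome 19 genes with other symbols 653 of 1088 (60.0%), with a median of -0.03. The groups were apart in the lower direction for 29 of the 215 (13.5%) and in the higher direction for 3. An unadjusted p under 0.05 in limma was found for 23 of the 215 with a lower mean and for 1 with a higher mean. The difference between these lists and the cluster was not tested. When the zinc finger genes of chromosome 19 were grouped by gene order into runs, the 40 probe sets from ZNF175 to ZNF331 had 37 lower and a median of -0.19, beside 25 of 29 and -0.18 for the cluster around ZNF585B. In the run from ZNF175 to ZNF331 the groups were apart in the lower direction for 13 of 40 and in the higher for 1. Of its probe sets 10 had an unadjusted p under 0.05 in limma, all lower. For the cluster around ZNF585B these counts were 6, 2 and 5 of 29. The other 5 runs had 71.2% to 85.7% lower and medians from -0.11 to -0.02. ZNF611, in the run from ZNF175 to ZNF331, read 7.91, 8.16 and 8.06 against 7.47, 7.65 and 7.61 (difference -0.47, SE 0.10), and ZNF814, in the last run of the chromosome, differed by -0.64 (SE 0.15). In the higher direction the smallest p among these belonged to ZNF556 at 0.23 (SE 0.09) and ZNF208 at 0.23 (SE 0.11).

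**Figure D5:**
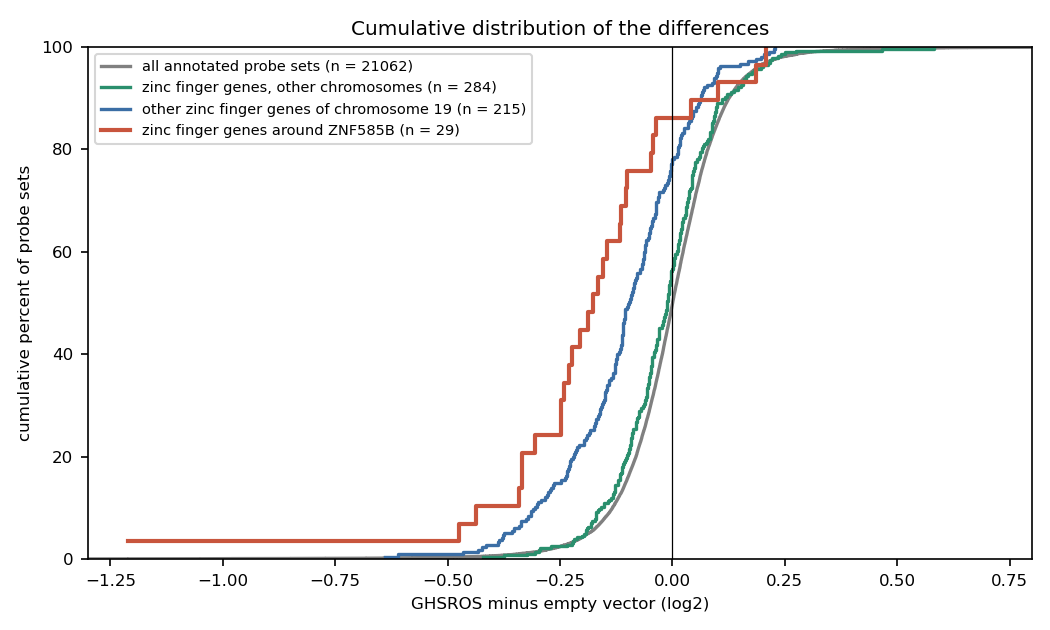
Cumulative percent of probe sets (vertical axis) by log2 difference of GHSROS minus empty vector (horizontal axis), for the 29 genes around ZNF585B (red), the other 215 zinc finger probe sets of chromosome 19 (blue), 284 on other chromosomes (green) and all 21062 annotated probe sets (grey). At 0 the red line has reached 25 of 29 genes, the blue line 78.1%, the green line 56.7% and the grey line 49.8%.

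The machinery through which KRAB proteins act leaned to neither direction. Of 37 measured co-repressor and heterochromatin genes 19 were lower and 18 higher, with a median difference of -0.003. In limma 0 passed the test and 0 had an unadjusted p under 0.05, beside 0% and 1.8% of all probe sets. At such shares a list this short may well hold no such gene. The error was wide for some of them, with SE 0.40 for SUV39H1, 0.39 for RESF1 and 0.38 for UHRF1. TRIM28, named for its role after its values were seen, averaged 11.27 ± 0.16 (SD, n = 3) in empty-vector cultures and 11.32 ± 0.10 in GHSROS cultures, and SETDB1 read 8.66 ± 0.20 and 8.72 ± 0.09. The smallest p among lower genes belonged to ATF7IP2 (-0.15, SE 0.14) and MORC2 (-0.11, SE 0.12), and among higher genes to DNMT3A, a DNA methyltransferase (0.20, SE 0.10), and SMARCAD1, a chromatin remodeller (0.09, SE 0.09). Between the zinc finger genes of the cluster only 2 probe sets for other transcripts were measured, LINC00665 at -0.09 (SE 0.16) and 1 that names CYKILR and LOC284412 together, at 0.24 (SE 0.14). The groups overlapped for both.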

How the data were processed

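Human Gene 1.0 arrays of 6 cultures, 3 per vector, were grouped by the sample titles. The authors deposited RMA expression on a log2 scale, per the submitters' processing notes; the version, steps and filters of RMA are not stated in those notes as used here. RMA usually equalises the arrays' distributions, which would remove a shift shared by most genes. Precision is set by having 3 arrays a group. Probe sets were named through the platform annotation (19310 with 1 symbol, 1752 with several, 7807 unnamed), and gene order and upstream windows came from RefSeq, GRCh38.p14.

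The 21062 annotated probe sets were fitted in R 4.3.3 with limma 3.58.1 (two-sided moderated test on group alone by lmFit and eBayes, Benjamini-Hochberg adjustment, threshold 0.05, no filter on level), and the fit was tried on simulated data. Differences are GHSROS minus empty vector on the log2 scale. Windows were aligned with Biopython 1.88. The p-values treat cultures as independent; if they were not grown separately, that spread may be technical.

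The members and lists were chosen with earlier results of these data known. Chromosome 19 runs (at least 10 genes, neighbours within 30 places) and chromosome 19 genes with other symbols were added after values were seen. Every member was named, with values per array for the ZNF585 pair, 2 genes on each side, the 6 other members with the smallest p and the highest and lowest readings. ZNF382, ZNF540, ZNF850, ZFP14 and ZNF569 were given per array as well, chosen after their values were seen. From the other lists the 2 smallest p in each direction were named. Alternatives were the replicate number as a block, 2 rescalings, 2 filters on level, all probe sets, 1 probe set per gene, a trended robust prior, array weights, each array left out, and both arrays that stood apart left out.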

Additional observations from a re-analysis of the deposited data

How the results depend on the processing

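Under 16 alternatives 22 of the 29 genes kept the sign of their difference and 0 had an adjusted p under 0.05 in any of them. Among the 28 genes without ZNF585B the lowest adjusted p in limma was 0.685, with array weights. With array weights ZNF850 turned to 0.016, and without both arrays that stood apart ZNF461 turned to 0.086 and ZNF529 to 0.025. The cause was not tested. With single arrays left out ZNF461 ranged from -0.14 to 0.034, ZNF565 from -0.15 to 0.041, ZNF569 from -0.38 to 0.013, ZNF571 from -0.061 to 0.18, ZNF829 from -0.095 to 0.041 and ZNF850 from -0.38 to 0.18. The number of genes lower ranged from 22 to 25 and the median difference from -0.25 (without GHSROS array 2) to -0.12 (without GHSROS array 3). In the same fits 43.7% to 52.3% of all probe sets were lower. With array weights, or without both arrays that stood apart, the median was -0.12.

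The count of genes with an unadjusted p under 0.05 was 5, 3 to 7 with single arrays left out (3 without GHSROS array 1) and 10 with array weights. Over all 21062 probe sets the same count was 380, 218 to 552 with single arrays left out (218 without GHSROS array 1) and 951 with array weights, or 1.80%, 1.04% to 2.62% and 4.52%. Without ZNF585B the genes numbered 4, 2 to 6 and 9 of 28. The count was 3 among the 20 genes above the 25th percentile of level, or 2 of 19 without ZNF585B, beside 227 of 15796 probe sets (1.44%). It was 0 among the 4 at or above the median of level, beside 94 of 10531 (0.893%). The latter filter leaves fewer genes to test. All 4 of those were lower, beside 56.9% of all probe sets kept. So were 70 of 91 other chromosome 19 zinc finger probe sets, against 148 to 165 of 215 with single arrays left out. Arrays numbered 2 deviated together (r = 0.508 across probe sets, which are not independent), while those numbered 1 and 3, each with an array that stood apart, did not (r = -0.709 and -0.664), so the numbers were not taken to pair the cultures. With the replicate number as a block, 25 of 29 genes were lower, beside 49.8% of all probe sets, and 0 passed. In that fit 4 genes had an unadjusted p under 0.05 in limma, or 3 of 28 without ZNF585B, beside 267 of 21062 probe sets (1.27%).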
